A study of Homo sapiens with 11 samples.

Results

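CYB5B, GSTO1, GSDME, NCEH1, RTN3, C18orf32 and ALDH1A3 are 7 of the 19 genes that the study silenced with small interfering RNAs (siRNAs) while searching for the proteins through which cysteine-reactive chloroacetamides kill senescent cells. The library was chosen from proteins pulled down with such compounds, and each gene was targeted by 4 siRNAs in etoposide-treated and DMSO-treated cells. As candidate targets found at both times after transfection, the paper names only GSTO1, CYB5B and GPX4. The 7 genes were taken by name from that library, out of 61542 genes in the tables, and all 7 were among the 17033 genes that passed the filter on low counts. RNA was sequenced from SK-MEL-103, an established human melanoma line, so every value comes from 1 line. All cells were grown for 6 days with medium and additives renewed on day 3. They received the solvent DMSO (n = 4), etoposide at 0.25 µM (n = 4), which traps topoisomerase II on broken DNA, or tozasertib at 0.5 µM (n = 3), which inhibits the mitotic Aurora kinases. The third replicate with tozasertib was not analysed here. It is not stated whether the replicates came from separate cultures, so the p-values may describe technical spread only. The pulldowns and the siRNA screen measured protein binding and cell survival. The values given here are instead mRNA levels in cultures of the same line with DMSO, etoposide or tozasertib. No siRNA or chloroacetamide is listed for these cultures.

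Senescence is a lasting arrest of the cell cycle in which cells enlarge, secrete inflammatory factors and remodel their membranes, mitochondria and redox state. An electrophile such as a chloroacetamide forms a covalent bond with a reactive cysteine, and several of the proteins in the library carry an active-site cysteine or sit in the membranes of the endoplasmic reticulum (ER) or mitochondria. CYB5B is the cytochrome b5 of the outer mitochondrial membrane and passes electrons to partner enzymes. GSTO1 is an omega-class glutathione transferase with a catalytic cysteine. RTN3 is a reticulon that bends ER tubules, and its long form acts as a receptor for ER-phagy. NCEH1 is a membrane-bound hydrolase of cholesterol esters and ether lipids. ALDH1A3 oxidizes retinaldehyde to retinoic acid and has a catalytic cysteine. GSDME is a gasdermin that forms pores in the plasma membrane after proteolytic cleavage. C18orf32 encodes a small, little-studied protein.

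The sites of an siRNA were taken here as exact matches to the 19 bases its guide strand pairs with. Sites with mismatches were not searched. The designed sequences and the transcripts carrying them are given before the levels. The sense strands are shown 5′ to 3′, and the capitals mark bases 12 to 18, which pair with the seed (bases 2 to 8) of the guide. The 28 siRNAs had 28 distinct seeds. In the main transcript of each gene 25 of the 28 sites lay in coding sequence and 3 in the 3′ untranslated region, and 7 sites spanned an exon junction. All positions are in GRCh38 with GENCODE 44 transcripts. The CYB5B siRNAs are printed because their sites were carried by different shares of the gene's transcripts. CYB5B is on the plus strand at chr16:69398402-69466264. The site of siRNA 1 crosses from exon 2 to exon 3 of CYB5B-203, siRNA 2 pairs in exon 1, siRNA 3 in exon 2 and siRNA 4 in the 3′ untranslated part of exon 5.
CYB5B siRNA 1, chr16:69447277-69448131 with the intron: cgagugaccuuAAACCUGa
CYB5B siRNA 2, chr16:69424745-69424763: agaccucagucACCUAUUa
CYB5B siRNA 3, chr16:69447216-69447234: guaggacacucUUCUGAUg
CYB5B siRNA 4, chr16:69462462-69462480: gcgcuguucucUUAGGUUu

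The C18orf32 siRNAs are printed because all 4 sites also stand in another annotated gene. C18orf32 is on the minus strand at chr18:49477243-49487252 and overlaps RPL17-C18orf32 (chr18:49481681-49492479), a readthrough gene that joins the upstream ribosomal protein gene RPL17 to C18orf32. Of the 1440 bases of the readthrough transcript RPL17-C18orf32-203, 918 were shared with C18orf32 and 522 with RPL17. In C18orf32-202, siRNA 18 pairs in the coding part of exon 2, siRNA 19 in the coding part of exon 3, and siRNAs 17 and 20 in the 3′ untranslated part of exon 3.
C18orf32 siRNA 17, chr18:49482223-49482241: ggauaggagucUAGAUAUu
C18orf32 siRNA 18, chr18:49483632-49483650: ucguauauggcCUAAGAAa
C18orf32 siRNA 19, chr18:49482387-49482405: agacaugaaugGAUUACCa
C18orf32 siRNA 20, chr18:49482287-49482305: ccugauaauauGAAGCAUc

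A further pair of siRNAs is printed because an alternative transcript of the same gene lacks the site. NCEH1 siRNA 2 spans exons 1 and 2 of NCEH1-204 on the minus strand, and its site is absent from NCEH1-206. ALDH1A3 siRNA 3 pairs in exon 6 of ALDH1A3-201 on the plus strand, and its site is absent from ALDH1A3-202.
NCEH1 siRNA 2, chr3:172648098-172710848 with the intron: ugaguaaccugAUCCACUa
ALDH1A3 siRNA 3, chr15:100894059-100894077: uaucucggcucUCUGAUCa

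Sequencing depth was 27882689 to 56534763 reads assigned per sample. Genes that mark cell-cycle arrest moved with both drugs. CDKN1A, which encodes the p21 inhibitor of cyclin-dependent kinases, rose by 1.62 ± 0.058 (log2, SE) under etoposide and 1.71 ± 0.061 under tozasertib, and LMNB1, the lamin B1 gene, fell by 2.18 and 2.90 on the log2 scale. DMSO replicate 1 stood apart: its counts differed from those of the other DMSO samples with a chi-square per degree of freedom of 34.1 to 76.8, against 7.17 to 23.9 among the rest of that group. Of the melanocyte-lineage markers 7 of 12 reached 1 TPM (Salmon's length-corrected transcript level) in a sample, and their summed level was between 273 and 334 TPM in the DMSO samples, 202 and 223 under etoposide and 256 and 267 under tozasertib. SOX10 was high (means of 251, 179 and 216 TPM with DMSO, etoposide and tozasertib). The pigment genes MLANA, TYR, TYRP1 and DCT were at or near 0, whereas PMEL had 0.30, 0.35 and 3.47 TPM. In the same order ERBB3 had 8.49, 1.79 and 2.39 TPM, RAB38 29.7, 9.76 and 13.2, and PAX3 14.6, 10.4 and 15.1. MITF had 2.80, 3.82 and 4.08 TPM and S100B 1.91, 3.87 and 6.14. Of the fibroblast markers 3 of 8 reached 1 TPM, with sums of 58.4 to 65.2, 184 to 215 and 186 to 195 TPM. LUM made most of these sums under both drugs, and COL1A2, COL3A1, DCN, PDGFRA and COL14A1 stayed under 1 TPM. The means of COL1A1 were 1.44, 13.8 and 7.44 TPM with DMSO, etoposide and tozasertib, and those of TWIST2 were 28.2, 21.7 and 21.5. Keratinocyte markers (3 of 7, mostly KRT10) summed to 38.5 to 45.9, 47.9 to 48.8 and 46.8 to 53.3 TPM, and immune markers (2 of 7, mostly CD68, with PTPRC near 0) to 41.6 to 53.2, 29.5 to 33.9 and 38.1 to 41.8 TPM. None of 4 endothelial markers reached 1 TPM. The part of these markers in the results was not tested.

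Whether the mRNA of the 7 targets differs after senescence induction was asked by comparing each drug with DMSO. Under etoposide 6 of the 7 genes passed the test, against 58.3% of all genes tested, and under tozasertib also 6 of 7, against 59.2%. NCEH1, C18orf32 and ALDH1A3 rose with each drug, whereas CYB5B, RTN3 and GSDME fell. GSTO1 did not pass in either comparison. The log2 fold changes ran from −1.27 (RTN3) to 1.00 (NCEH1) under etoposide and from −1.34 to 0.91 for the same genes under tozasertib. The median over the 7 genes was −0.17 and −0.18, beside −0.01 and 0.02 over all 17033 genes. Both comparisons use the same DMSO samples. In bulk RNA, fewer cells expressing a gene and less RNA per cell cannot be told apart. Levels of single genes are given next as CPM, read counts brought to a common library size by the trimmed mean of M-values. Where the samples of a gene do not overlap between groups, this is said. The share of all genes without overlap is not given, so such separation is not read as particular to the 7 genes.

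**Figure D1:**
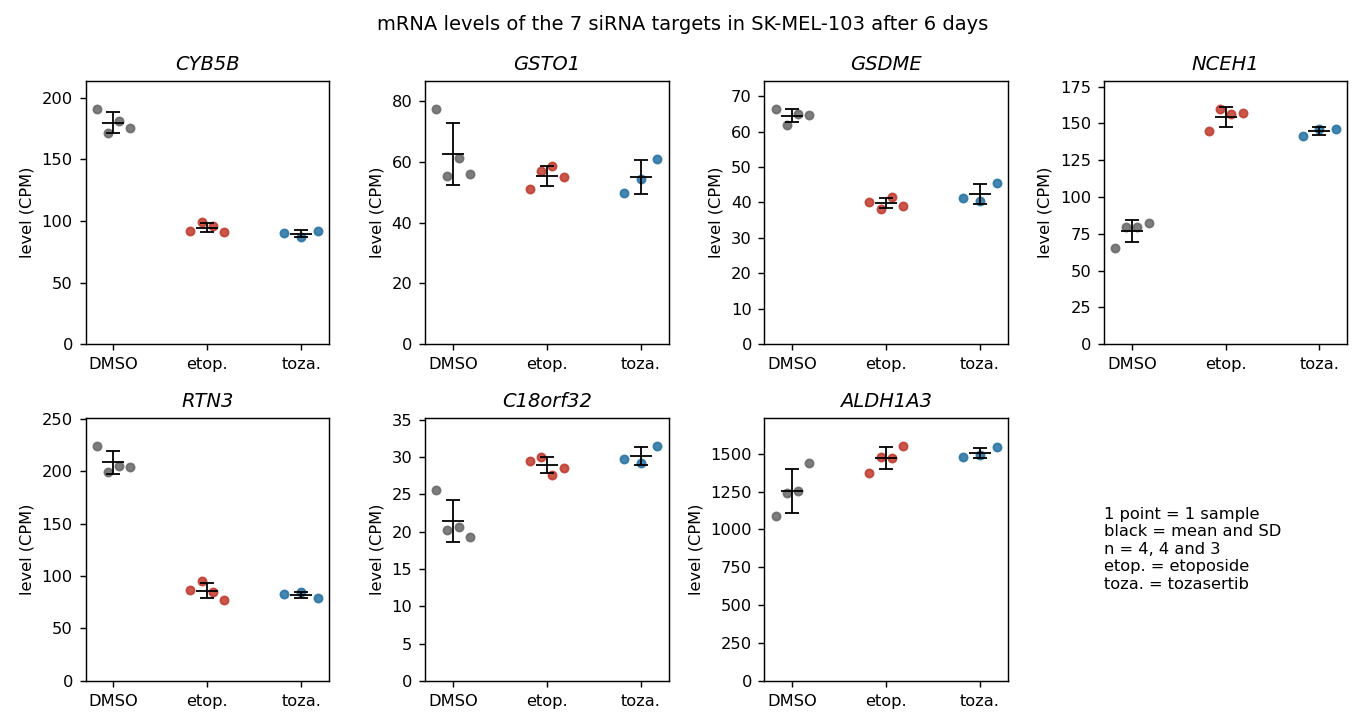
Level of each of the 7 genes in every sample, in CPM (vertical axis, starting at 0), by treatment (horizontal axis: DMSO n = 4, etoposide n = 4, tozasertib n = 3). Points are samples, horizontal lines are means and bars are SD. CYB5B, RTN3 and GSDME lay lower in every drug-treated sample than in any DMSO sample and NCEH1 and C18orf32 lay higher, while the GSTO1 samples overlapped. How many of all genes separate in this way is not given.

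CYB5B, the mitochondrial cytochrome b5, had 191, 171, 181 and 176 CPM in the 4 DMSO samples. The etoposide samples had 92.1, 99.4, 95.5 and 91.4 CPM and the tozasertib samples 90.3, 86.9 and 92.0 CPM. Every treated sample was therefore below every DMSO sample. The mean went from 179.7 ± 8.45 CPM (SD, n = 4) to 94.6 ± 3.66 (n = 4) with etoposide, a 1.9-fold fall (log2 −0.93, SE 0.053, edgeR adjusted p = 7.98e-09). With tozasertib it was 89.8 ± 2.60 CPM (n = 3), a 2.0-fold fall (log2 −1.0, SE 0.058, edgeR adjusted p = 9.39e-09).

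The electron-transfer partners of cytochrome b5 were followed as a list of 8 genes, all of which passed the filter. Under etoposide 2 rose and 6 fell, with a median log2 change of −0.58, and under tozasertib 1 rose and 5 fell, with a median of −0.41. Of all genes tested, 27.7% rose and 30.6% fell under etoposide, and 29.9% rose and 29.4% fell under tozasertib. CYB5A, the cytochrome b5 of the ER, changed by −0.66 and −0.63 on the log2 scale (edgeR adjusted p = 3.78e-05 and 0.000123). MTARC1 and MTARC2, the molybdenum enzymes of the outer mitochondrial membrane that receive electrons through CYB5B, changed by −1.02 and −0.55 under etoposide and −0.97 and −0.73 under tozasertib. Thus both cytochromes and both MTARC genes were lower with each drug. The reductases, which pass electrons from NADH or NADPH to cytochrome b5, went different ways. CYB5R1 rose by 0.67 and 0.52, CYB5R2 fell by 3.17 under etoposide and 1.4 under tozasertib, and CYB5R4 fell by 0.57 and 0.19. CYB5R3 rose under etoposide (0.21, edgeR adjusted p = 0.00974), with −0.11 and an adjusted p of 0.174 under tozasertib. CYB5R2 was 1.77 higher on the log2 scale with tozasertib than with etoposide in the direct comparison of both drugs.

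RTN3, the ER reticulon (chr11:63681446-63759891, plus strand), showed the deepest fall of the 7 genes. It had 224, 199.7, 205 and 204 CPM with DMSO. It had 87.0, 95, 84.9 and 77.6 CPM with etoposide and 82.8, 84.8 and 79.1 CPM with tozasertib. All treated samples lay far below all DMSO samples. From a DMSO mean of 208 ± 10.8 it went to 86.1 ± 7.15 CPM with etoposide, 2.42-fold lower (log2 −1.27, SE 0.066, edgeR adjusted p = 3.22e-09), and to 82.2 ± 2.89 CPM with tozasertib, 2.53-fold lower (log2 −1.34, SE 0.072, edgeR adjusted p = 5.03e-09).

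In a list of 22 other genes for ER shaping and ER-phagy, 21 were tested. Under etoposide 6 rose and 10 fell (median log2 change −0.12), and under tozasertib 5 rose and 10 fell (median −0.18). The genes that rose with both drugs included 3 of the ER-phagy receptors, the proteins that link ER to the autophagy machinery. CCPG1 rose by 1.21 and 1.08, CALCOCO1 by 0.87 and 0.82, and RETREG1 by 0.96 and 0.61 (edgeR adjusted p between 8.77e-10 and 7.87e-06). The receptor TEX264 changed the other way, by −0.29 and −0.33. ATL3 also fell with each drug, RETREG3 fell under etoposide and RETREG2 under tozasertib, so the listed receptors moved in both directions. Among the tubule-shaping genes, ARL6IP1 fell by 0.94 and 1.36 and RTN4, another reticulon gene, by 0.15 and 0.18. The reticulon gene RTN2 also fell with each drug, and RTN1 passed neither test. REEP6 and CKAP4, a protein of ER sheets, rose with each drug, by 0.72 and 0.60 and by 0.33 and 0.20. RTN3 was thus lower where CCPG1, CALCOCO1 and RETREG1 were higher and TEX264 and ATL3 were lower. The short transcript RTN3-208, with 708 coding bases, held 85.8%, 85.9% and 85.7% of RTN3 TPM with DMSO, etoposide and tozasertib. RTN3-202, a long form with 3039 coding bases, had 1.67 ± 0.66, 0.67 ± 0.31 and 1.24 ± 0.44 TPM. The fall of RTN3 was therefore mostly that of RTN3-208, and a change in level of the long form was not tested.

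NCEH1 (chr3:172630249-172711218, minus strand), the lipid hydrolase, had the highest fold rise of the 7. It had 65.7, 79.8, 79.9 and 82.4 CPM with DMSO, where replicate 1 was lowest. It had 145, 159.6, 156 and 157 CPM with etoposide and 141, 146 and 146 CPM with tozasertib. All treated samples lay far above all DMSO samples. The mean of 77.0 ± 7.62 CPM went to 154 ± 6.53, 2.01-fold higher with etoposide (log2 1.00, SE 0.069, edgeR adjusted p = 4.82e-08), and to 145 ± 2.74, 1.88-fold higher with tozasertib (log2 0.91, SE 0.074, edgeR adjusted p = 2.47e-07).

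Other genes of cholesterol ester and stored lipid turnover moved in both directions, and 14 of 19 listed genes were tested. Under etoposide 3 rose and 6 fell (median log2 change −0.13), and under tozasertib 2 rose and 7 fell (median −0.20). Without DMSO replicate 1 the etoposide count was 5 higher and 6 lower. LIPA, the lysosomal acid lipase that also splits cholesterol esters, rose by 0.68 and 0.99 (edgeR adjusted p = 6.21e-07 and 3.2e-08). ABCA1, the cholesterol exporter, rose by 1.63 and 1.45. ABHD5, a cofactor of the triglyceride lipase, rose by 0.33 under etoposide and had 0.04 under tozasertib (edgeR adjusted p = 0.638). The genes that fell with both drugs included MGLL, monoacylglycerol lipase, by 1.61 and 2.39, NPC1, which moves cholesterol out of lysosomes, by 0.71 and 0.91, SOAT1, which makes cholesterol esters, by 0.46 and 0.24, and LIPE, hormone-sensitive lipase, by 1.24 and 0.74.

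ALDH1A3 (chr15:100877714-100916626, plus strand) was by far the most abundant of the 7 mRNAs and changed least among those that passed the test. It had 1089, 1239, 1252 and 1436 CPM with DMSO. It had 1376, 1476, 1473 and 1551 CPM with etoposide and 1479.7, 1492 and 1542 CPM with tozasertib. The etoposide and DMSO samples overlapped, since DMSO replicate 4 lay above etoposide replicate 1, whereas the tozasertib samples all lay above the DMSO samples. The DMSO mean of 1254 ± 142 became 1469 ± 72 CPM with etoposide, 1.17-fold higher (log2 0.23, SE 0.074, edgeR adjusted p = 0.0175), and to 1504 ± 32.8 CPM with tozasertib, 1.20-fold higher (log2 0.26, SE 0.080, edgeR adjusted p = 0.0122). Without etoposide replicate 4 the etoposide change was 0.20 with an edgeR adjusted p of 0.0575, so this call depended on 1 sample.

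Of 18 other aldehyde dehydrogenase genes 14 were tested. Under etoposide 6 rose and 1 fell (median log2 change 0.11), and under tozasertib 5 rose and 2 fell (median 0.16). Without DMSO replicate 1 the etoposide count was 4 higher and 1 lower. ALDH3B1, a membrane-bound enzyme acting on lipid-derived aldehydes, rose by 1.09 and 0.99 (edgeR adjusted p = 1.07e-07 and 5.46e-07). ALDH6A1 and ALDH1L2, both mitochondrial, rose by 0.73 and 0.46 and by 1.06 and 1.32. ALDH7A1, the lysine-catabolic enzyme, fell by 0.44 and 0.64. ALDH1A1, a related retinaldehyde dehydrogenase, changed by −0.35 and 0.61 without passing either test, and it was 0.96 higher with tozasertib than with etoposide.

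Of 21 listed genes for making, binding, degrading and sensing retinoids, 15 were tested. Under etoposide 5 rose and 5 fell (median log2 change 0.02), and under tozasertib 5 rose and 3 fell (median 0.22). CYP26B1, which degrades retinoic acid, rose by 2.80 and 2.95 (edgeR adjusted p = 9.59e-06 and 8.78e-06). RARB, a retinoic acid receptor, rose by 0.89 and 1.06 (edgeR adjusted p = 1.25e-08 and 4.64e-09). RDH10, which oxidizes retinol to the substrate of ALDH1A3, rose by 0.76 under etoposide and had 0.28 under tozasertib (edgeR adjusted p = 0.0533). RDH11, which reduces retinaldehyde, fell by 0.98 and 0.96. CRABP2, which carries retinoic acid to its receptors, rose by 0.73 under tozasertib and had −0.19 under etoposide (edgeR adjusted p = 0.382), and the direct comparison gave 0.93 higher with tozasertib.

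GSTO1 (chr10:104235356-104267459, plus strand), the omega-class transferase, did not pass the test with either drug. It had 77.4, 55.4, 61.2 and 56.1 CPM with DMSO, where replicate 1 was highest. It had 51.0, 57, 58.8 and 55.1 CPM with etoposide and 49.8, 54.4 and 61.1 CPM with tozasertib. The 3 groups overlapped. The mean was 62.5 ± 10.2 CPM with DMSO, 55.5 ± 3.34 with etoposide and 55.1 ± 5.65 with tozasertib. The log2 change under etoposide was −0.17 (95% interval −0.40 to 0.05, edgeR adjusted p = 0.165). Under tozasertib it was −0.18 (95% interval −0.42 to 0.06, edgeR adjusted p = 0.170). Without DMSO replicate 1 these values were −0.06 and −0.07 (edgeR adjusted p = 0.506 and 0.438), so that 1 library set most of the difference.

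Among 20 other glutathione transferase genes 13 were tested, and under each drug 4 rose and 5 fell, with median log2 changes of 0.07 and 0.10. GSTO2, the other omega-class gene, rose by 0.58 and 0.82 (edgeR adjusted p = 0.046 and 0.0102). GSTM2 rose by 0.77 and 0.70 and GSTM4, from the same mu class, fell by 0.96 and 0.72. These mu genes are close in sequence, so reads may have been shared between them. GSTP1, the main pi-class transferase, fell by 0.45 and 0.63, and the microsomal genes MGST1 and MGST3 fell by 0.61 and 0.63 and by 0.58 and 0.67. GSTZ1 rose by 0.68 and 0.59.

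GSDME (chr7:24698355-24757940, minus strand), the pore former, had 66.3, 61.8, 64.8 and 64.8 CPM with DMSO. It had 40.0, 38.3, 41.6 and 39.1 CPM with etoposide and 41.4, 40.3 and 45.5 CPM with tozasertib. The DMSO samples lay above all treated samples. The mean went from 64.4 ± 1.87 to 39.7 ± 1.43 CPM with etoposide, 1.62-fold lower (log2 −0.70, SE 0.056, edgeR adjusted p = 2.18e-07), and to 42.4 ± 2.75 CPM with tozasertib, 1.52-fold lower (log2 −0.60, SE 0.061, edgeR adjusted p = 2.15e-06).

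Of 17 other gasdermins and genes for their activation 15 were tested. Under etoposide 6 rose and 4 fell (median log2 change 0.11), and under tozasertib 9 rose and 3 fell (median 0.44). BAK1 and BAX, which open the outer mitochondrial membrane, rose by 0.91 and 0.79 and by 0.37 and 0.47. APAF1 and CYCS, the scaffold and the cytochrome c of the apoptosome, fell by 0.70 and 0.66 and by 0.38 and 0.39, and the apoptosome caspase CASP9 fell by 0.20 and 0.30. CASP8, an initiator caspase of death receptor signalling, rose by 0.50 and 0.58. NINJ1, which ruptures the plasma membrane late in lytic death, rose by 0.59 and 0.76. GSDMB rose by 1.21 and 1.17, whereas GSDMD fell under etoposide (−0.55, edgeR adjusted p = 0.000942) and had −0.29 under tozasertib (edgeR adjusted p = 0.0535). CASP1, the inflammasome caspase that cleaves GSDMD, rose by 1.88 under tozasertib (edgeR adjusted p = 1.31e-05) and had 0.08 under etoposide, and the direct comparison of both drugs gave 1.81 higher with tozasertib.

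C18orf32 was the least abundant of the 7. It had 25.6, 20.1, 20.6 and 19.3 CPM with DMSO, where replicate 1 was highest. It had 29.4, 30.0, 27.5 and 28.6 CPM with etoposide and 29.7, 29.2 and 31.5 CPM with tozasertib. All treated samples lay above all DMSO samples. The mean went from 21.4 ± 2.82 to 28.9 ± 1.07 CPM with etoposide, 1.35-fold higher (log2 0.43, SE 0.083, edgeR adjusted p = 0.000557), and to 30.1 ± 1.19 CPM with tozasertib, 1.4-fold higher (log2 0.49, SE 0.088, edgeR adjusted p = 0.000332). When counts were scaled for the length of the transcripts in use, the changes were 0.91 and 0.94. The readthrough gene was more abundant than C18orf32 itself, with 38 ± 4.4, 43.4 ± 3.09 and 44.7 ± 3.21 CPM in the 3 groups, and it changed by 0.19 and 0.24 (edgeR adjusted p = 0.0689 and 0.0401). Neither result was stable, since DESeq2 gave adjusted p of 0.0451 and 0.0514. Because Salmon divides reads between overlapping transcripts, both were also added together. The sum changed by 0.28 and 0.33 (edgeR adjusted p = 0.00578 and 0.00316), smaller than for C18orf32 alone but in the same direction. RPL17, the upstream neighbour, changed the other way, by −0.25 and −0.64 (edgeR adjusted p = 0.0477 and 0.000224). Its DMSO and etoposide samples overlapped, and without DMSO replicate 1, its highest sample, the changes were −0.12 and −0.52 (edgeR adjusted p = 0.0927 and 1.1e-05).

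**Figure D2:**
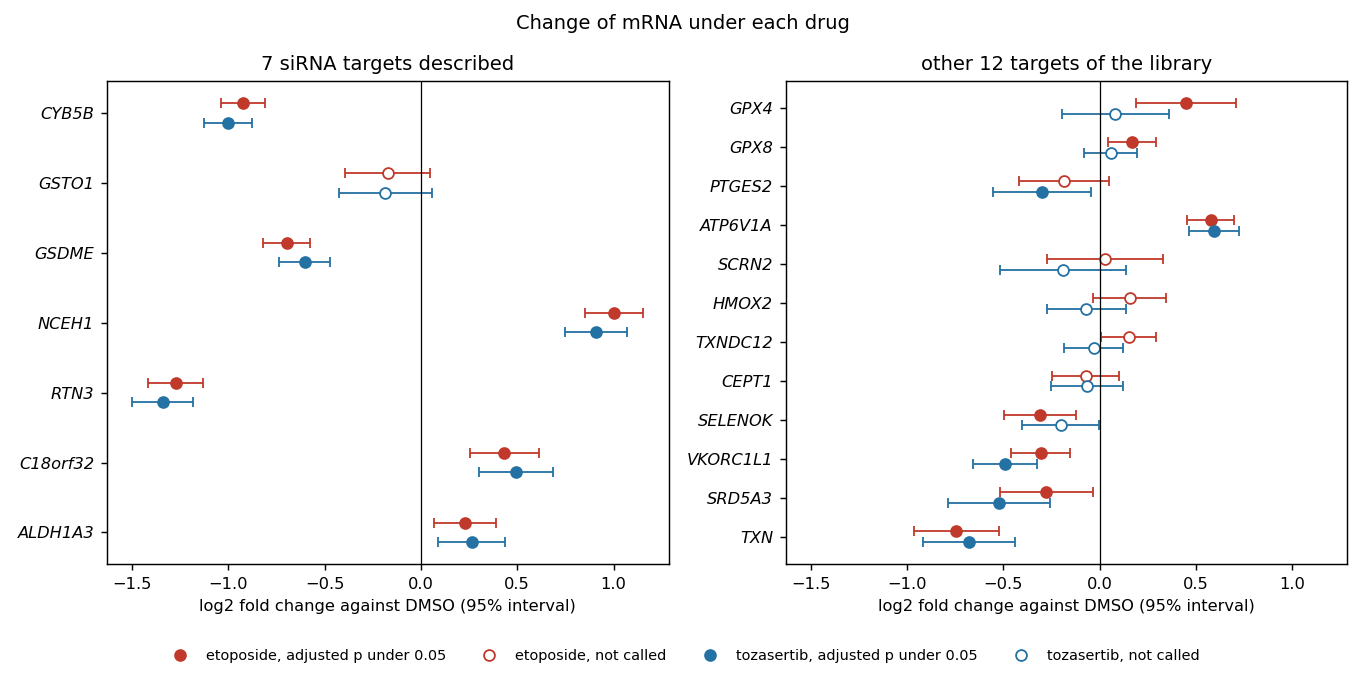
Log2 fold change of each gene (horizontal axis) under etoposide (red) and tozasertib (blue) against DMSO, for the 7 genes (left) and the other 12 targets of the siRNA library (right). Points are edgeR estimates with 95% intervals, filled where the adjusted p was under 0.05. The 7 genes run from −1.34 (RTN3, tozasertib) to 1.00 (NCEH1, etoposide), and the other 12 from −0.74 (TXN) to 0.59 (ATP6V1A).

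The direct comparison of both drugs passed for 0 of the 7 genes, against 11.1% of all genes tested (5.66% higher and 5.45% lower with tozasertib). In edgeR 0 of the 7 had an unadjusted p under 0.05, and DESeq2 also called 0. The share of all genes at that cut or with DESeq2 is not given, so these counts are not read as particular to the 7 genes. The differences, tozasertib minus etoposide, ran from −0.09 (NCEH1) to 0.09 (GSDME) on the log2 scale, with a median of −0.01 beside 0.01 over all genes. Their 95% intervals give the size that remains possible. That of CYB5B was −0.20 to 0.05, that of RTN3 −0.22 to 0.08, that of NCEH1 −0.25 to 0.06 and that of ALDH1A3 −0.14 to 0.21. The interval was −0.25 to 0.23 for GSTO1, −0.04 to 0.23 for GSDME and −0.13 to 0.25 for C18orf32. The intervals of GSTO1 and C18orf32 were the widest.

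DMSO replicate 1 was the lowest of its group for NCEH1 and ALDH1A3 and the highest for CYB5B, GSTO1, GSDME, RTN3 and C18orf32. Without it the etoposide changes were −0.90 for CYB5B, −1.24 for RTN3, −0.69 for GSDME, 0.93 for NCEH1, 0.52 for C18orf32 and 0.16 for ALDH1A3 (edgeR adjusted p = 0.0294 for the last). The tozasertib changes were −0.98, −1.31, −0.59, 0.84, 0.58 and 0.20 in the same order (edgeR adjusted p = 0.0165 for ALDH1A3). The 6 genes that passed the test with all samples also passed it without this library.

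Levels can be set against each other between genes only per length, and for this the deposited TPM values of a gene's transcripts were summed. With DMSO the order was ALDH1A3 (576 ± 118 TPM), CYB5B (179.7 ± 20.6), GSTO1 (146 ± 9.64), RTN3 (143 ± 11.6), GSDME (45.3 ± 4.11), NCEH1 (32.4 ± 6.31) and C18orf32 (10.6 ± 0.49). CYB5B and GSTO1, and GSTO1 and RTN3, overlapped between samples and so were not separable, and the other neighbours in the order did not overlap. ALDH1A3 stood at the 98.7th percentile of the genes tested and C18orf32 at the 49.9th. With etoposide the order became ALDH1A3 (746 ± 36.4 TPM), GSTO1 (145 ± 7.33), CYB5B (110.5 ± 2.84), NCEH1 (72.6 ± 3.30), RTN3 (66.3 ± 5.02), GSDME (32 ± 1.35) and C18orf32 (22.4 ± 3.52), where NCEH1 and RTN3 overlapped. The tozasertib order was the same, with 805 ± 13.9, 151 ± 15.3, 111 ± 4.45, 71.0 ± 1.57, 66.7 ± 2.36, 35.1 ± 2.17 and 24.2 ± 4.51 TPM and no overlap between neighbours. NCEH1 thus moved from below GSDME to above it with both drugs, and from below RTN3 to above it with tozasertib.

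Which transcripts carried these levels was examined next. The share of a gene's TPM on transcripts with an siRNA site tells how much of its mRNA holds an exact match. That siRNA is said below to reach this share, and action on transcripts without an exact match was not tested. This share was at least 95% in every group for 17 of the 28 siRNAs. CYB5B had the widest range among its siRNAs. Its siRNA 1 reached 69.1% ± 1.36 of CYB5B TPM with DMSO, 68.2% ± 2.45 with etoposide and 66.4% ± 6.17 with tozasertib. CYB5B siRNA 2 reached 82.5% ± 2.72, 83.7% ± 1.33 and 86.2% ± 2.44, and siRNA 3 reached 83.8% ± 5.29, 86.8% ± 1.42 and 85.7% ± 2.02. CYB5B siRNA 4, in the 3′ untranslated region, reached 98.9% to 99.6%. Thus siRNA 1 had the lowest share of the 4 in each group. The main transcript, CYB5B-203, held 40.8% ± 2.41, 42.2% ± 2.77 and 41.4% ± 5.83 of the gene's TPM and carries all 4 sites. CYB5B-209 and CYB5B-204 carry 3 of the 4 sites and CYB5B-207 carries 2, each with 12.7% to 19.3% of the TPM.

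The 4 RTN3 siRNAs reached 96.0% to 99.7% of RTN3 TPM, and RTN3-208 held 85.8%, 85.9% and 85.7% of it. The sites of RTN3 siRNAs 2, 3 and 4 also stand in the pseudogene RTN3P1, which was at 0 in all samples but DMSO replicate 3 (0.0973 TPM). GSTO1 siRNAs 2 and 3 reached 99.97% or more of GSTO1 TPM and siRNAs 1 and 4 reached 94.3% to 95.8%. The pseudogene GSTO3P, which shares the site of GSTO1 siRNA 2, was listed at 0 in every sample. GSDME siRNA 2 reached 96.3% with DMSO, 90% ± 4.4 with etoposide and 90.9% ± 2.56 with tozasertib, and the other GSDME siRNAs reached 93.1% to 96.7%. All 4 C18orf32 siRNAs reached 100% of C18orf32 TPM, and of the readthrough transcript as well. The readthrough transcript had 51.5 ± 1.62, 67.8 ± 4.96 and 73.0 ± 4.51 TPM, above the summed level of C18orf32 in each group.

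**Figure D3:**
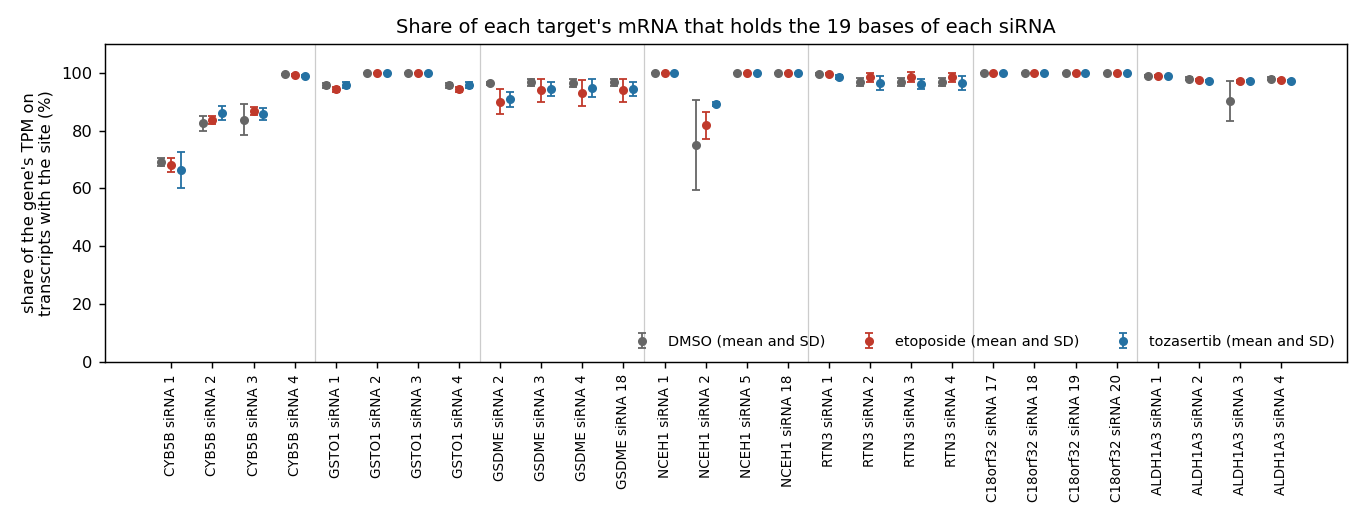
Share of each gene's TPM on transcripts that hold the 19-base site of each siRNA (percent), as group means with SD for DMSO (n = 4), etoposide (n = 4) and tozasertib (n = 3). CYB5B siRNA 1 has the lowest share, 66.4% to 69.1%, and NCEH1 siRNA 2 the widest spread among the DMSO samples.

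NCEH1 siRNA 2 reached 75.0% ± 15.6 of NCEH1 TPM with DMSO, 81.8% ± 4.60 with etoposide and 89.2% ± 0.85 with tozasertib, and the other 3 NCEH1 siRNAs reached 100%. The remainder was NCEH1-206, a transcript with a shorter coding sequence. It held 47.7%, 21.2%, 19% and 12.3% of NCEH1 TPM in the DMSO samples. It held 14.8%, 13.7%, 21.2% and 22.9% with etoposide and 10.8%, 11.6% and 9.92% with tozasertib. DMSO replicate 1 had the largest share by far. Every tozasertib sample lay below every DMSO and etoposide sample, while the DMSO and etoposide samples overlapped, and the transcript passed neither test of transcript usage in any comparison.

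ALDH1A3 siRNA 3 reached 90.3% ± 6.84 of ALDH1A3 TPM with DMSO, 97.1% ± 0.47 with etoposide and 97.1% ± 0.25 with tozasertib, and the other 3 ALDH1A3 siRNAs reached 97.3% to 99.0%. ALDH1A3-202, a transcript of 3104 bases without that site, made the difference. It had 80.6, 37.7, 36.7 and 23.8 TPM with DMSO. It had 17.0, 9.26, 13.2 and 14.7 TPM with etoposide and 13.3, 15.95 and 13.3 TPM with tozasertib. Every treated sample lay below every DMSO sample, and DMSO replicate 1 was the highest of all. As a share of ALDH1A3 TPM it was 18.9%, 6.51%, 6.30% and 3.33% with DMSO, and between 1.25% and 2.41% in the treated samples.

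Transcript usage was tested for 39 transcripts of the 7 genes within a fit of 64581 transcripts. With edgeR's diffSpliceDGE 1 of 39 passed under each drug, against 1.02% and 1.13% of all transcripts, and 0 of 39 between the drugs, against 0.375%. The transcript was ALDH1A3-202, at −1.54 and −1.56 on the log2 scale relative to the rest of its gene (diffSpliceDGE adjusted p = 1.58e-08 and 1.78e-07). In simulated data, however, 63.3% of the genes that the gene-level form of this test called at 0.05 had no change. That rate is not given for single transcripts or for smaller adjusted p. A limma test on log ratios was chosen after the data were seen, and 12.4% of the genes it called in simulation were false. It passed 0 of 39 in each comparison, against 1.72%, 1.31% and 0.0418% of all transcripts. For ALDH1A3-202 it gave −2.11 and −2.12 (limma adjusted p = 0.0640 and 0.0831). Without DMSO replicate 1 the limma values were −1.59 (adjusted p = 0.0368) and −1.60 (adjusted p = 0.0532). At an unadjusted p under 0.05 the limma test counted 9, 10 and 0 of the 39 transcripts. The share of all 64581 transcripts at that cut is not given, so these counts are not read as changes in usage. Salmon's uncertainty in dividing reads between transcripts is not part of either test.

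**Figure D4:**
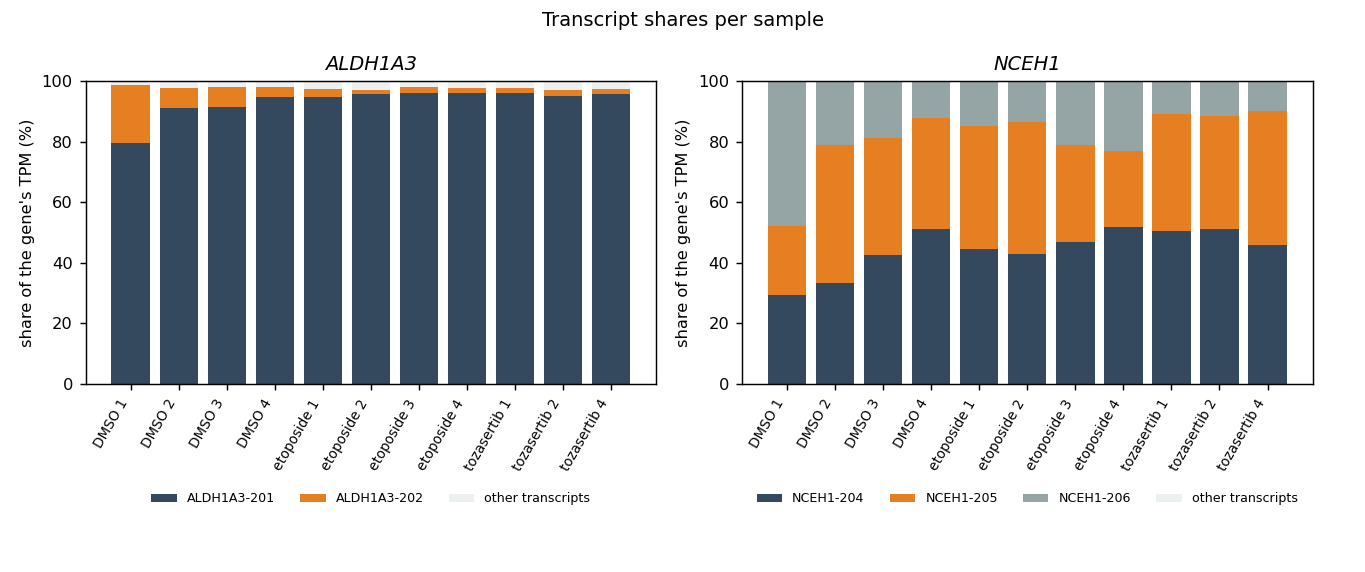
Share of the gene's TPM (percent) on each main transcript of ALDH1A3 (left) and NCEH1 (right), one bar per sample. DMSO replicate 1 has the largest share of ALDH1A3-202 (18.9%) and of NCEH1-206 (47.7%).

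For C18orf32, the length-scaled change was larger than the count change, and the short transcript C18orf32-202, of 714 bases, held a larger share under the drugs. It had 3.69, 4.11, 4.96 and 3.78 TPM with DMSO. It had 17.2, 12.8, 14.2 and 7.89 TPM with etoposide and 11.4, 11.2 and 19 TPM with tozasertib. All treated samples lay above the DMSO samples but were widely spread. The long transcripts rose less and more evenly, from 4.18 ± 0.13 TPM to 6.28 ± 0.18 and 6.50 ± 0.09 for C18orf32-201 and from 2.26 ± 0.07 to 3.08 ± 0.35 and 3.83 ± 0.10 for C18orf32-203. The share of C18orf32-202 was 39.0% ± 3.66, 57.2% ± 9.13 and 56.4% ± 7.12, and its usage passed no test (limma log ratio 1.04 and 0.98, adjusted p = 0.152 and 0.195).

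**Figure D5:**
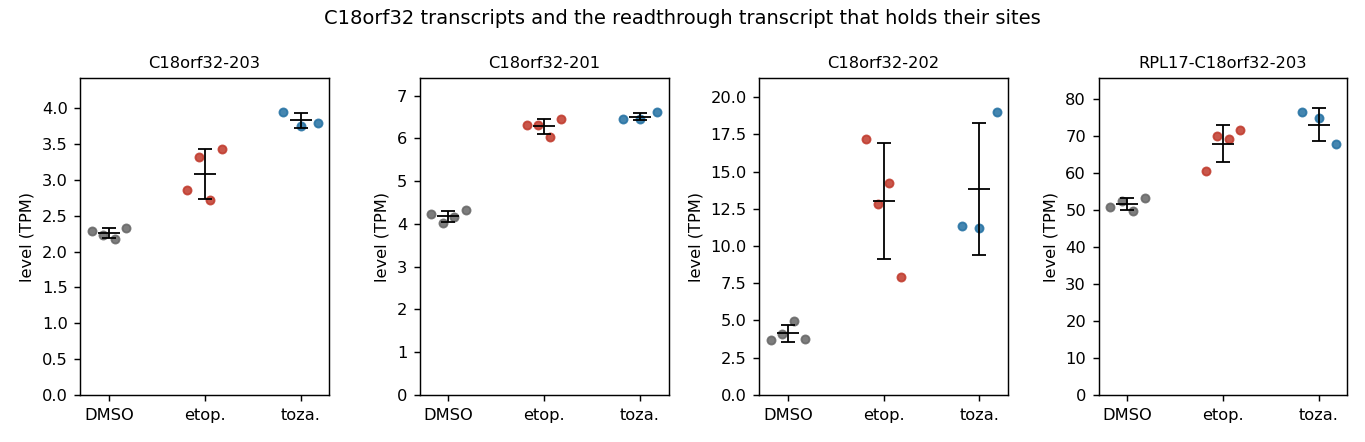
Level in TPM of the 3 C18orf32 transcripts and of the readthrough transcript RPL17-C18orf32-203 that holds the same siRNA sites, by treatment, with points for samples and lines for mean and SD. C18orf32-202 shows the widest spread among treated samples, 7.89 to 19 TPM.

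For the knockdown measurements, the study's quantitative PCR primers for CYB5B matched 15 of its 17 transcripts, with an amplicon of 139 bases, and those transcripts held 82.5%, 83.7% and 86.2% of CYB5B TPM in the 3 groups. The GSTO1 primers gave an amplicon of 69 bases in 5 of 7 transcripts, which held 99.97% to 100% of GSTO1 TPM.

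The other 12 genes of the siRNA library were all tested. Under etoposide 3 rose and 4 fell (median log2 change −0.02), and under tozasertib 1 rose and 4 fell (median −0.13). Without DMSO replicate 1 the counts were 5 higher and 3 lower, and 2 higher and 3 lower. ATP6V1A, a subunit of the lysosomal proton pump, rose by 0.58 and 0.59 (edgeR adjusted p = 1.4e-06 and 2.24e-06). TXN, thioredoxin, fell by 0.74 and 0.68 (edgeR adjusted p = 3.09e-05 and 0.000156). VKORC1L1, a vitamin K epoxide reductase, fell by 0.31 and 0.49, and SRD5A3, a polyprenol reductase, by 0.28 and 0.52. GPX4, the glutathione peroxidase that removes lipid peroxides, rose by 0.45 under etoposide (edgeR adjusted p = 0.00567) and had 0.08 under tozasertib (edgeR adjusted p = 0.601). GPX8, an ER peroxidase, rose by 0.17 under etoposide and had 0.06 under tozasertib. The ER selenoprotein gene SELENOK fell by 0.31 under etoposide and had −0.20 under tozasertib, and PTGES2 fell by 0.30 under tozasertib and had −0.19 under etoposide. SCRN2, HMOX2, TXNDC12 and CEPT1 passed neither test, with values between −0.19 and 0.16. In size, the changes of RTN3, NCEH1 and CYB5B exceeded those of all 12, of which TXN was the largest.

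The genes whose profile over the 11 samples was most like that of each target were found by the root mean square difference of centred log2 CPM in a set of 10802 coding genes whose mean was 5 CPM or more. CYB5B was closest to CRYZ (0.034), SSRP1 (0.045) and CCNI (0.047), and RTN3 to DEK (0.057), MCM7 (0.059) and SVIP (0.064). NCEH1 was closest to KIF13A (0.048), APP (0.049) and CUL4B (0.058), and ALDH1A3 to CLTC (0.032), MKLN1 (0.033) and GLG1 (0.036). GSDME was closest to SSBP3 (0.052), PAK1 (0.059) and DMAC2 (0.060), GSTO1 to PSMA5 (0.056), GEMIN7 (0.057) and NTMT1 (0.059), and C18orf32 to COA5 (0.051), DNASE2 (0.052) and TANGO2 (0.053). Among the 7 themselves, the most alike pairs were CYB5B with GSDME (0.169) and CYB5B with RTN3 (0.176), and the least alike were NCEH1 and RTN3 (1.10). These distances describe 11 samples that share 3 treatments, so genes that move with treatment by a like amount are close by this measure.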

How the data were processed

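The deposited tables give, per the file headers, estimated counts of reads, TPM, length and effective length for each transcript. The submitters' processing notes name cutadapt 4.7 and Salmon 1.9.0, and the authors selected poly(A) RNA and made strand-specific libraries. TPM was deposited as the authors' Salmon gave it. Of 251645 transcripts 99.6% matched GENCODE 44, and estimated counts were summed to 61542 genes and rounded. edgeR 4.0.16 in R 4.3.3 (filterByExpr, TMM, quasi-likelihood F test, 1 mean per group over all 11 samples, two-sided) gave the 3 comparisons, with Benjamini-Hochberg adjustment over 17033 genes and a call at 0.05. The study's methods name DESeq2, which was run as an alternative (version 1.42.0). In data simulated for etoposide against DMSO with 16650 genes, the fit recovered 100% of 2-fold and 75% of 1.41-fold changes, with 8 false calls. Transcript usage was tested with diffSpliceDGE and with limma 3.58.1. Sequences of siRNAs and primers came from the study's supplementary tables and were matched exactly to GENCODE 44 transcripts. The genes and lists were chosen with earlier results of these data known. Named genes were the 7 targets, the other 12 library targets, up to 4 genes per list with the smallest adjusted p, all genes of a list where 5 or fewer passed in a direction, and the 3 closest profiles per target. Further list genes were named after their values were seen. Some genes of the fixed lists are not reported here by name.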

Additional observations from a re-analysis of the deposited data

Results flagged for a closer look

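NCEH1 in DMSO replicate 1 (65.7 CPM) lay far below the other 3 DMSO samples, with a gap that was 0.845 of the range of the group. Among the 14 groups of 4 samples examined, chance alone marks about 5%. The NCEH1 changes were 0.93 and 0.84 on the log2 scale without that sample.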

How the results depend on the processing

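Of 282 changes of the 7 genes against DMSO recomputed under other settings, 281 kept their direction and their side of the threshold. The exception was ALDH1A3 under etoposide without etoposide replicate 4 (0.20, edgeR adjusted p = 0.0575), and leaving out single samples gave 0.16 to 0.30. The length-scaled value of C18orf32 (0.91 and 0.94) was the largest move. In the ALDH list under etoposide, 4 instead of 7 genes passed with no filter on low counts.

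Between the drugs, 131 of 141 values kept their direction, and none passed a test. GSTO1 (−0.01) became 0.028 with library size alone, 0.0041 with a length-trend offset and 0.023 with that offset and the replicate block, and ranged from −0.095 to 0.055 without single samples. ALDH1A3 (0.03) became −0.013 with the offset and −0.0098 with offset and block, C18orf32 (0.06) became −0.0038 with both, and RPL17-C18orf32 ranged from −0.011 to 0.098 without single samples. Counts of all genes lower with tozasertib than with etoposide (929) were 1486 with DESeq2, 523 length-scaled, 1764 with only those groups fitted, 1765 with the offset and 1539 with offset and block, and 470 to 1852 without single samples. Counts higher (964) were 611 length-scaled, 1785 with only those groups, and 562 to 1543 without single samples. The lowest of both ranges came without tozasertib replicate 1 and the highest without DMSO replicate 1.

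The limma usage test called 0 of the 7 genes' transcripts under each drug, also at a minimum of 10 reads in 3 samples and with the replicate block, against 1 with diffSpliceDGE. Without single samples it called 0 to 2, with 2 under etoposide without DMSO replicate 1 or 4 and 2 under tozasertib without DMSO replicate 4. diffSpliceDGE called 2 under tozasertib without DMSO replicate 4 and 1 between the drugs without etoposide replicate 4. Why values moved was not tested.

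The labels give the groups shared replicate numbers, and the 10 same-number pairs had correlations of −0.09 to 0.23, 2 of them over 0.1. Between etoposide and tozasertib, same-number pairs had 0.23, 0.09 and 0.12, and pairs of different number −0.21 to 0.16. Such correlations cannot decide whether same-numbered samples shared a culture or a batch, so the fit was also run with a replicate block. With the replicate block 4674 of all genes were higher and 5174 lower under etoposide, and 4915 higher and 4879 lower under tozasertib. Between the drugs 832 were higher and 783 lower with tozasertib. Of the 7 genes 6, 6 and 0 passed in the 3 comparisons. Weighting siRNA coverage by estimated counts instead of TPM moved it by −1.11 to 8.60 percentage points. Of fold changes of 1.41-fold the simulation of etoposide against DMSO, on 16650 genes, recovered 75% at these depths and sample numbers. The changes were placed only in genes with a mean of at least 5 CPM.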
